A study of Mus musculus with 4 samples.

Results

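The cell cycle genes described here are 38 named genes of cyclins, cyclin-dependent kinases, their inhibitors, pocket proteins, mitotic genes and replication genes, matched by symbol in a table of 55536 genes. All 38 were found, each on 1 row, and 37 of them passed the filter on low counts and were tested. RNA came from islets, the endocrine part of the pancreas, taken from male C57BL/6 mice aged 8 weeks. The groups were 2 non-depleted libraries and 2 insulin-depleted libraries, the latter made with a Jumpcode Genomics DepleteX panel that removes insulin sequences during library preparation. All 4 were libraries of polyadenylated RNA, and the labels give no other treatment. Their protocol text also covers dissociation for single-cell work, so it does not settle whether this RNA came from whole or dissociated islets. The labels call the 2 libraries of a group biological replicates. All column names carry the same pair of codes (M1 and M2), so the labels do not show whether replicates were separate animals or pools, and p-values reflect only how far these libraries spread, which may be technical. Column names of the non-depleted group also carry a size selection tag that the insulin-depleted names lack, so size selection and depletion cannot be told apart.

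A cell enters division when D-type cyclins, bound to Cdk4 or Cdk6, begin to phosphorylate the retinoblastoma protein, which frees E2F factors to switch on the genes of DNA replication. Cyclin E with Cdk2, cyclin A, and cyclin B with Cdk1 then drive replication and mitosis. INK4 proteins (the Cdkn2 genes) block Cdk4 and Cdk6, and CIP/KIP proteins (the Cdkn1 genes) bind a wider range of cyclin-kinase complexes. Adult beta cells rarely divide, mouse beta cells are known to need Cdk4 and cyclin D2 for their growth after birth, and menin, the product of Men1, restrains islet cell growth.

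Promoter sequences are shown first because cell cycle genes are often grouped by short elements near their start sites. Windows of 250 bases before to 50 after the start were in RefSeq (GRCm38.p6) for 30 of the 38 members. Each was searched on both strands for TTTGAA (the CHR element of genes expressed late in the cycle), for CCAAT (the CCAAT box), and for TTCCCGC or TTGGCGC (forms of the E2F site). The 200 bases before the start are printed for 3 members with low RNA levels or few counts (Mki67, Top2a, Cdk1), for the replication gene Mcm6, and for 2 abundant regulators (Cdk4, Cdkn1a). Cdkn1a had windows at chr17:29090729-29091028 and chr17:29093519-29093818, and its stretch is from the first. Capitals mark every match on either strand.
Mki67 (chr7:135716380-135716579, minus strand): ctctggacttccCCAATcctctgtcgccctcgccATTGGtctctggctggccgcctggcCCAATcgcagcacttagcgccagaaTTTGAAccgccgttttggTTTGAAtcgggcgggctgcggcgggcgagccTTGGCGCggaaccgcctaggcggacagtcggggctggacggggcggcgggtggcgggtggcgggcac
Top2a (chr11:99024190-99024389, minus strand): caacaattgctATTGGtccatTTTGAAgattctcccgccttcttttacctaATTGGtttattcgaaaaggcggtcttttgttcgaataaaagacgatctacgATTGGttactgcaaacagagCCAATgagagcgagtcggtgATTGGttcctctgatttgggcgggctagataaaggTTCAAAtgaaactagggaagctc
Cdk1 (chr10:69352913-69353112, minus strand): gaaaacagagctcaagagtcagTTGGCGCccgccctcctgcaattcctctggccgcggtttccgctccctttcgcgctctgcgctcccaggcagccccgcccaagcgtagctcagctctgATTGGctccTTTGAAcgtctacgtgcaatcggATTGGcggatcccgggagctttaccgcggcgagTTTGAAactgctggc
Mcm6 (chr1:128359706-128359905, minus strand): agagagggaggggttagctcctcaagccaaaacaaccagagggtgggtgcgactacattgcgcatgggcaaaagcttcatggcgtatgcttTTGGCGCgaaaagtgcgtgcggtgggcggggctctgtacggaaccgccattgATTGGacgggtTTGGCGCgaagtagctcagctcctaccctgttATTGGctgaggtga
Cdk4 (chr10:127063335-127063534, plus strand): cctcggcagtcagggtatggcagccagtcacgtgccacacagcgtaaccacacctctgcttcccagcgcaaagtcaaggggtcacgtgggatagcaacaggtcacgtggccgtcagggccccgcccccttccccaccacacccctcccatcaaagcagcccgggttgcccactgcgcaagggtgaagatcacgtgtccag
Cdkn1a (chr17:29090779-29090978, plus strand): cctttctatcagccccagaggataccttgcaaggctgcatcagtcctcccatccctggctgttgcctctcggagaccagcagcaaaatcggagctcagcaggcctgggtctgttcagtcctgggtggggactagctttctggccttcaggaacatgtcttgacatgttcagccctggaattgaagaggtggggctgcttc

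Of the 8 mitotic and proliferation genes with a window, 5 held TTTGAA (Mki67, Top2a, Ccnb2, Aurka and Cenpf), against 17.9% of all 32851 windows. CCAAT was found in 7 of these 8, against 37.4% of all windows, and the E2F letters in 2 of 8 (Mki67 and Ccnb1), against 6.81%. Of the 6 replication genes with a window, 1 held TTTGAA (Mcm2), 6 held CCAAT and 4 held the E2F letters (Mcm3, Mcm5, Mcm6 and Mcm7). Among the 7 inhibitors the counts were 1, 5 and 2. No letters searched were in the windows of Cdk4, Cdk6, Cdkn1a, E2f1, Rbl1, Ccne1 or Birc5. A CCAAT match overlapped an E2F match once each in Ccnb1 and Mcm7. Genes with several annotated starts had up to 3 windows and counted once if any window held the letters. Such matches describe these windows and are not evidence of binding. When only the 100 bases before the start were read, TTTGAA was in 2 of the 8 mitotic promoters, against 5.77% of all windows, and the E2F letters were in 1 of the 6 replication promoters, against 2.59%.

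Library totals ran from 19316173 counts in insulin-depleted replicate 1 to 65030111 in insulin-depleted replicate 2. A level in CPM is a gene's count divided by the library's total without Ins1 and Ins2, times 1000000. These insulin genes took 3.97 to 4.14% of counts without and 0.195 to 0.264% with depletion. Where 4 values of a gene follow each other, their order is non-depleted replicate 1, non-depleted replicate 2, insulin-depleted replicate 1, insulin-depleted replicate 2. Islet identity was seen in the glucagon gene Gcg (11136 to 12812 CPM) and in 8 beta-cell markers other than insulin, which summed to 18527 to 19812 CPM. Acinar digestive markers summed to 11501 and 11512 CPM in the libraries numbered 1 and to 4669 and 4681 CPM in those numbered 2. Of 8 immune markers, the T-cell gene Cd3e had 0 counts in all libraries, which allows up to 0.0463 to 0.156 CPM at 3 counts. Among counts of 2 to 9, 80.01 to 84.01% were even in each library. Limits at 3 counts were taken on the counts as deposited and would be higher on counts divided by 2.

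Levels of different genes were compared per kilobase of annotated exon (GENCODE M21, GRCm38). Mean levels ran from 128 CPM per kilobase for Ccnd2 to 0.0481 for Aurkb, with 8 members at 10 or more and 15 below 1. Those at 10 or more were Ccnd2, Cdkn1a, Cdkn1b, Cdk4, Ccnd1, Pcna, Men1 and Rb1. With the longest transcript as length, 8 members were again at 10 or more, but single levels rose. Among them were Ccnd2 with 190, Cdkn1a with 96.1, Cdk4 with 49.6, Pcna with 34.2, Rbl2 with 9.66 and Ccnd3 with 7.75. Lower ones were Cdk2 with 3.65, Mcm2 with 3.65, Top2a with 0.504 and Ccnb1 with 0.202. In bulk RNA, fewer cells that express a gene and less RNA per cell cannot be told apart.

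**Figure D1:**
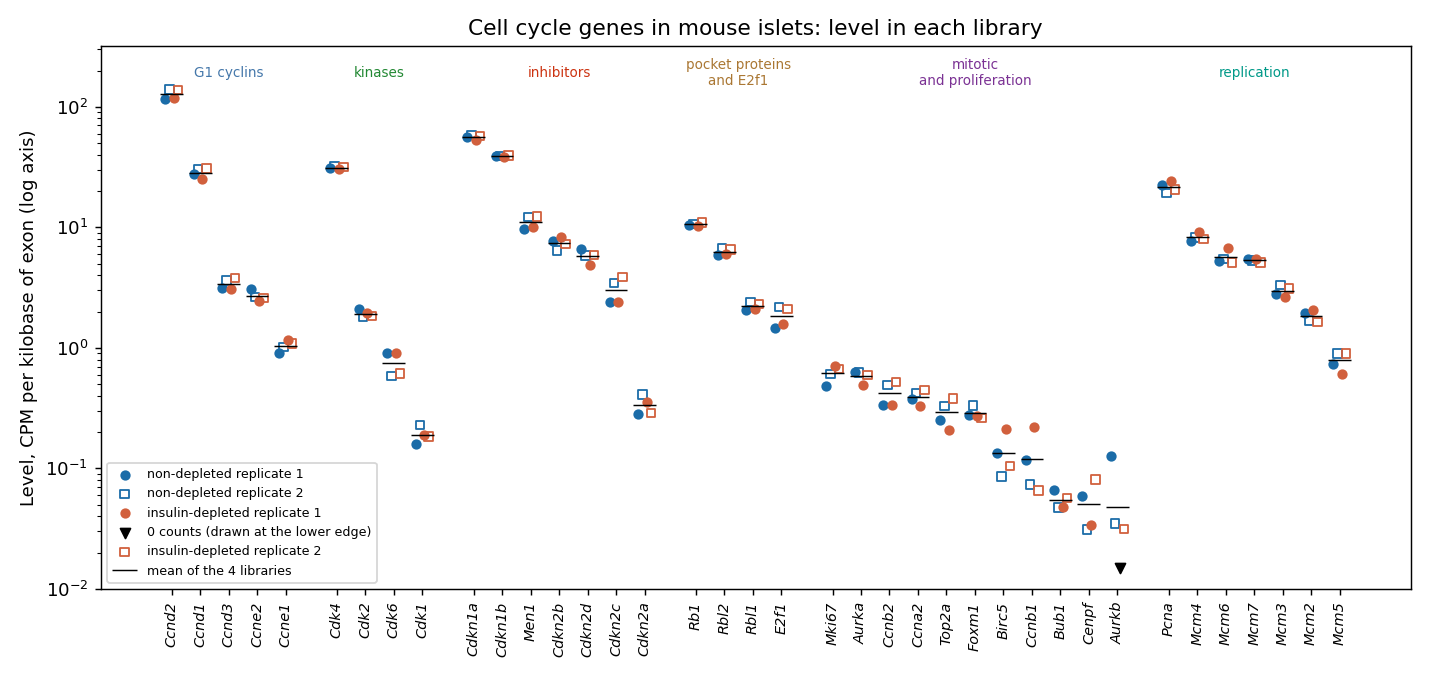
Level of each of the 38 genes in CPM per kilobase of exon (log axis), by role, with circles for replicate 1 and squares for replicate 2 of each group (blue non-depleted, orange insulin-depleted) and a line at the mean of the 4 libraries. Ccnd2 stands highest at 128, all 11 mitotic and proliferation genes lie below 1, and the triangle marks 0 counts of Aurkb in insulin-depleted replicate 1.

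Among G1 cyclins, the D-type gene Ccnd2 dominated. Ccnd2 (ENSMUSG00000000184, chromosome 6, 127125162 to 127152193, minus strand) had 1092, 1314, 1111 and 1303 CPM. Both libraries numbered 2 were higher than both numbered 1, and the groups overlapped. Per kilobase, 98.8% of all tested genes had a lower mean level than Ccnd2. Ccnd1 followed with 28.5 CPM per kilobase and Ccnd3 with 3.41. The ratio of Ccnd2 to Ccnd1 per kilobase was 4.39 ± 0.237 without and 4.61 ± 0.137 with depletion (SD, n = 2 each). It made up 79.7% ± 0.820 and 80.4% ± 0.467 of the summed D cyclin level (SD, n = 2). Ccnd1 shared 23.4% of its exonic bases with LTO1 on the other strand, and the use of strand in counting is not given in the sources used here. The E-type cyclins, which act with Cdk2, were lower, with 2.68 CPM per kilobase for Ccne2 and 1.04 for Ccne1. All 4 libraries gave the order Ccnd2, Ccnd1, Ccnd3, Ccne2, Ccne1, although Ccnd3 over Ccne2 fell to a ratio of 1.01 in 1 of them. Ccne2 shared 17.4% of its exonic bases with Ints8 on the other strand.

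Among kinases, Cdk4, a partner of D cyclins, stood far above the others. Cdk4 (ENSMUSG00000006728, chromosome 10, 127063534 to 127067920, plus strand) had 101, 105, 98.8 and 103 CPM. These values were close to each other and the groups overlapped. The other D cyclin partner, Cdk6 (ENSMUSG00000040274, chromosome 5, 3341485 to 3531008, plus strand), had 12.7, 8.19, 12.7 and 8.56 CPM, higher in both libraries numbered 1. The ratio of Cdk4 to Cdk6 per kilobase was 44.7 ± 14.5 without and 42.6 ± 12.9 with depletion (SD, n = 2). Cdk2, the cyclin E and A partner, had 1.91 CPM per kilobase, and the ratio of Cdk4 to Cdk2 was 16.4 ± 2.05 and 16.5 ± 1.08 (SD, n = 2). The mitotic kinase gene Cdk1 was lowest with 0.191 CPM per kilobase and 38, 66, 18 and 59 counts. The ranges of the 4 kinases did not overlap on this scale. Tspan31, on the other strand, shared 19.7% of the exonic bases of Cdk4.

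Inhibitor genes fell into a high pair and a lower set. Cdkn1a, which encodes p21 and is a target of p53, had 201, 207, 190 and 203 CPM. Cdkn1b, which encodes p27, had 179, 177, 174 and 180 CPM. Neither gene separated the groups. Per kilobase, Cdkn1a had 56.3 and Cdkn1b 39.0 CPM, above 96.7% and 94.6% of tested genes. Cdkn1a was higher in all 4 libraries (1.47 ± 0.0374 times without and 1.42 ± 0.0362 times with depletion, SD, n = 2). The size of this ratio depends on the length chosen, which the SD does not cover. With the longest transcript as length, Cdkn1a had 96.1 and Cdkn1b 39.0 CPM per kilobase. Men1 (ENSMUSG00000024947, chromosome 19, 6334979 to 6340891, plus strand) had 11.05 CPM per kilobase. Its values were 37.0, 46.9, 38.4 and 47.2 CPM, higher in both libraries numbered 2.

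INK4 genes were lower, and 1 of them was barely detected. Cdkn2b, which encodes p15, had 7.42 CPM per kilobase and Cdkn2d, which encodes p19 of the INK4 family, had 5.81, and their ranges overlapped. Cdkn2c, which encodes p18, had 3.04 CPM per kilobase. Cdkn2a (ENSMUSG00000044303, chromosome 4, 89274471 to 89294653, minus strand) yields the INK4 protein p16 and, from another promoter and reading frame, Arf, which counts per gene do not separate. It had 16, 28, 8 and 22 counts, or 0.334 CPM per kilobase, above the limit of 3 counts in each library. Its neighbour Cdkn2b on the same chromosome was 21.5 ± 8.21 times as high per kilobase without and 24.2 ± 1.33 times with depletion (SD, n = 2). The mean of the next lowest inhibitor, Cdkn2c, was 9.10 times that of Cdkn2a over the 4 libraries, and the range of Cdkn2a did not overlap that of any other inhibitor.

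The pocket proteins, which hold E2F factors in check, were led by Rb1. Rb1 had 62.8, 63.9, 61.9 and 66.3 CPM, with overlapping groups. It had 10.6 CPM per kilobase, against 6.30 for Rbl2 and 2.21 for Rbl1. The ratio of Rb1 to Rbl1 per kilobase was 4.77 ± 0.463 without and 4.83 ± 0.116 with depletion (SD, n = 2). E2f1, an activator of replication genes, had 1.83 CPM per kilobase, and its range overlapped that of Rbl1. Other genes shared 14.9% of the exonic bases of Rb1 and 21.0% of those of Rbl2, all on the other strand.

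Mitotic and proliferation genes were all low. Each of the 11 had a mean below 1 CPM per kilobase, and 10 of them had a mean below 5 CPM. Mki67 (ENSMUSG00000031004, chromosome 7, 135689784 to 135716361, minus strand), the gene of the Ki-67 antigen that marks cycling cells, had 0.617 CPM per kilobase, the highest mean of the 11 with exon length. It had 4.89, 6.09, 7.16 and 6.71 CPM, and the insulin-depleted pair lay above the non-depleted pair. Aurka, a spindle kinase gene, had 0.587 CPM per kilobase and Ccnb2, a cyclin B gene, 0.423. Their ranges overlapped those of their neighbours in the order, and Aurka stood above Mki67 with the longest transcript as length or without insulin-depleted replicate 1. Ccna2, the cyclin A gene, had 0.394 CPM per kilobase, and Top2a, a topoisomerase that untangles DNA, had 0.292. The mitotic transcription factor gene Foxm1 had 0.286. Exosc9, on the other strand, shared 12.5% of the exonic bases of Ccna2. The lowest 5 were Birc5 (survivin) with 0.134, Ccnb1 with 0.119, the spindle checkpoint kinase gene Bub1 with 0.0545, the kinetochore gene Cenpf with 0.0511 and the chromosomal passenger kinase gene Aurkb with 0.0481 CPM per kilobase. Aurkb had 18, 6, 0 and 6 counts and did not pass the filter. Its 0 counts in insulin-depleted replicate 1 allow up to 0.156 CPM at 3 counts, below the 0.371 CPM of non-depleted replicate 1. A difference from the 0.103 and 0.0925 CPM of the libraries numbered 2 was not detectable at this depth. Without non-depleted replicate 1 the mean of Aurkb was 0.0221 CPM per kilobase. Of the 44 counts of these 11 genes in the 4 libraries, 36 were even. Counting intervals and limits at 3 counts were taken on the counts as deposited. On counts divided by 2, intervals would be wider and limits higher. Ccnb1 shared 27.8% of its 31-base stretches with other annotated genes, led by Ccnb1-ps, so its counts are uncertain.

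Replication genes lay between these extremes. Pcna (ENSMUSG00000027342, chromosome 2, 132249162 to 132253314, minus strand), the sliding clamp of DNA polymerases that also acts in DNA repair, had 53.7, 46.1, 58.7 and 49.3 CPM. It was higher in both libraries numbered 1, its mean was 21.6 CPM per kilobase, and its ratio to Mki67 was 38.9 ± 10.1 without and 32.6 ± 2.49 with depletion (SD, n = 2). Pcna shared 23.3% of its 31-base stretches with other genes, led by Pcna-ps2. The Mcm genes encode the subunits of the replicative helicase, which work as 1 complex, and their levels per kilobase were not equal. Mcm4 had 8.28, Mcm6 5.62, Mcm7 5.34, Mcm3 2.97, Mcm2 1.83 and Mcm5 0.786 CPM per kilobase. Mcm6 and Mcm7 overlapped, while the other neighbours in this order were separate in range. With the longest transcript as length, Mcm7 moved above Mcm6 and Mcm2 above Mcm3. Mcm7 shared 33.4% of its 31-base stretches with other genes, led by Gm5487, and Mcm4 shared 5.26%. Other genes also overlapped 12.6% of the exonic bases of Mcm7.

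**Figure D2:**
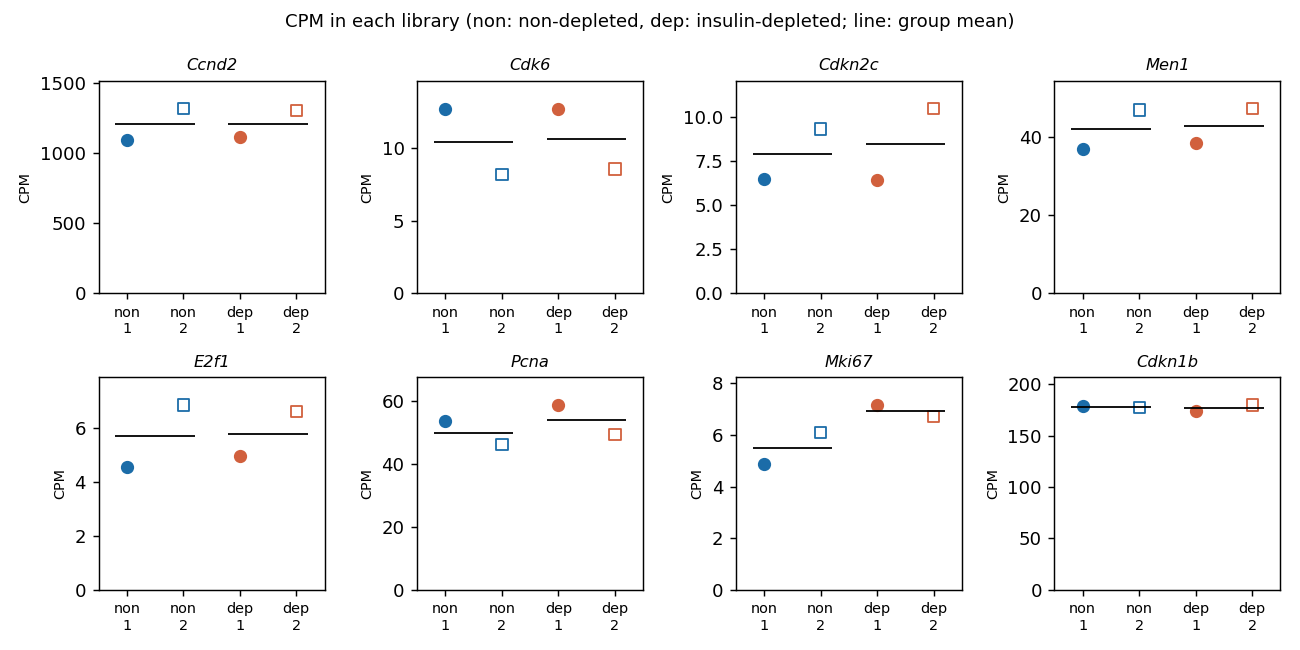
CPM of 8 members in each library, with circles for replicate 1, squares for replicate 2 and a line at each group mean, on axes that start at 0. Cdk6 and Pcna are higher in both libraries numbered 1, Ccnd2, Cdkn2c, Men1 and E2f1 in both numbered 2, and Cdkn1b lies between 174 and 180 CPM in all 4.

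The next comparison was between replicates, as the log2 ratio of replicate 2 over replicate 1 within each group, with 0.5 counts added. These ratios have no test, since each compares 1 library with 1 library. Over the 37 tested members the median ratio was 0.09 without and 0.10 with depletion, against 0.03 and 0.02 over all 19723 genes tested. Both libraries numbered 2 lay above both numbered 1 for 16 of the 37 tested members (43.2%), against a background of 34.9% of all tested genes. They lay below for 8 members (21.6%), against 26.7%.

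Cdkn2c and Cdk6 stood out between replicate numbers among the 24 members with a mean of at least 5 CPM. Cdkn2c had 6.47, 9.31, 6.43 and 10.5 CPM. Its log2 ratio was 0.52 without depletion (exact Clopper-Pearson 95% interval from counting error alone, 0.32 to 0.73) and 0.70 with it (0.42 to 0.99). Intervals of this kind were taken on the counts as deposited and would be wider on counts divided by 2. Cdk6 went the other way, with ratios of -0.63 (-0.80 to -0.45) and -0.57 (-0.79 to -0.35). These 2 of the 24 members passed 0.5 in the same direction in both groups, and 3.90% of 11597 tested genes at that level did. With TMM-scaled CPM (scaled by edgeR's trimmed mean of M-values), Cdkn2c was no longer past 0.5 in both groups. E2f1 had ratios of 0.58 and 0.41, from 4.58, 6.86, 4.98 and 6.63 CPM, and Men1 of 0.34 and 0.29. Ccnd2 (0.27 and 0.23), Ccnd3 (0.22 and 0.29), Ccnd1 (0.16 and 0.29) and all 4 genes of pocket proteins and E2f1 were also higher in both libraries numbered 2. Of these, Rb1 had ratios of only 0.02 and 0.10. Cdk4 and Cdkn1a were higher in both as well, but Cdk4, Cdkn1a and Cdkn1b had ratios within -0.01 to 0.10.

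Replication genes did not move as 1 group between replicate numbers. Pcna (-0.22 and -0.25) and Mcm2 (-0.19 and -0.33) were lower in both libraries numbered 2, and Mcm3 (0.24 and 0.24) and Mcm5 (0.28 and 0.54) were higher. Mcm6 had 24.6, 25.4, 31.2 and 23.8 CPM, so that insulin-depleted replicate 1 stood above the other 3 libraries. Mitotic genes varied most, at few counts. Ccnb1 had ratios of -0.67 and -1.75 and Birc5 of -0.62 and -1.05, while Top2a had 0.38 and 0.86 and Ccnb2 0.54 and 0.57. Cenpf changed sign, with -0.90 without and 1.21 with depletion. Past 0.5 in the same direction in both groups were 5 of the 37 tested members (Cdk6, Cdkn2c, Ccnb1, Ccnb2 and Birc5), and 10.4% of all tested genes.

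Markers of islet cells and of other cell types also moved with the replicate number. Of 10 acinar markers, 8 were lower and 1 higher in both libraries numbered 2, the acinar regulator gene Ptf1a had 0 counts in non-depleted replicate 2 (up to 0.0516 CPM at 3 counts), and their sum had a log2 ratio of -1.30 in each group. Of 8 beta-cell markers other than insulin, 6 were higher and 2 lower in replicate 2 of both groups, among them the transcription factor gene Nkx6-1 with 148, 196, 143 and 189 CPM, while their sum, most of it Iapp, had ratios of -0.10 and -0.06. The delta-cell hormone gene Sst was higher in both libraries numbered 2 (527, 665, 532 and 658 CPM) and the gamma-cell hormone gene Ppy lower (2720, 1905, 2619 and 1862 CPM). Of the 6 delta- and gamma-cell markers, 3 were higher and 2 lower, and their sum, most of it Ppy, had ratios of -0.33 and -0.31. The summed alpha-cell markers (4 of 6 lower, 1 higher) had ratios of -0.18 and -0.19, and the stellate and fibroblast markers -0.18 and -0.22. Endothelial markers, with 6 of 6 higher in both libraries numbered 2, had 0.17 in each group. Immune markers did not move together, and their sum had ratios of 0.22 and 0.29, from 70.3 to 85.7 CPM. Cd68, Adgre1 and Cd74 (18.2, 27.8, 19.2 and 27.9 CPM) were higher in both libraries numbered 2. Ptprc (5.83, 5.21, 5.86 and 5.30 CPM) and Cd79a were lower, and Csf1r and Lyz2 changed direction between the groups. Erythroid markers summed to 6.39, 11.05, 7.57 and 10.4 CPM, with ratios of 0.79 and 0.45. Of the 6 ductal markers, 4 were lower and 1 higher in replicate 2 of both groups, and their sum had -0.07 in each. Krt7 was higher in both libraries numbered 2 (304, 421, 298 and 409 CPM), and Muc1 was lower (73.0, 44.0, 77.0 and 42.4 CPM). The sum of the 5 Schwann-cell markers (2 lower, 1 higher) had ratios of 0.08 and -0.05. The part of these cell types in the differences of Cdkn2c, Cdk6 and the other members was not tested.

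**Figure D3:**
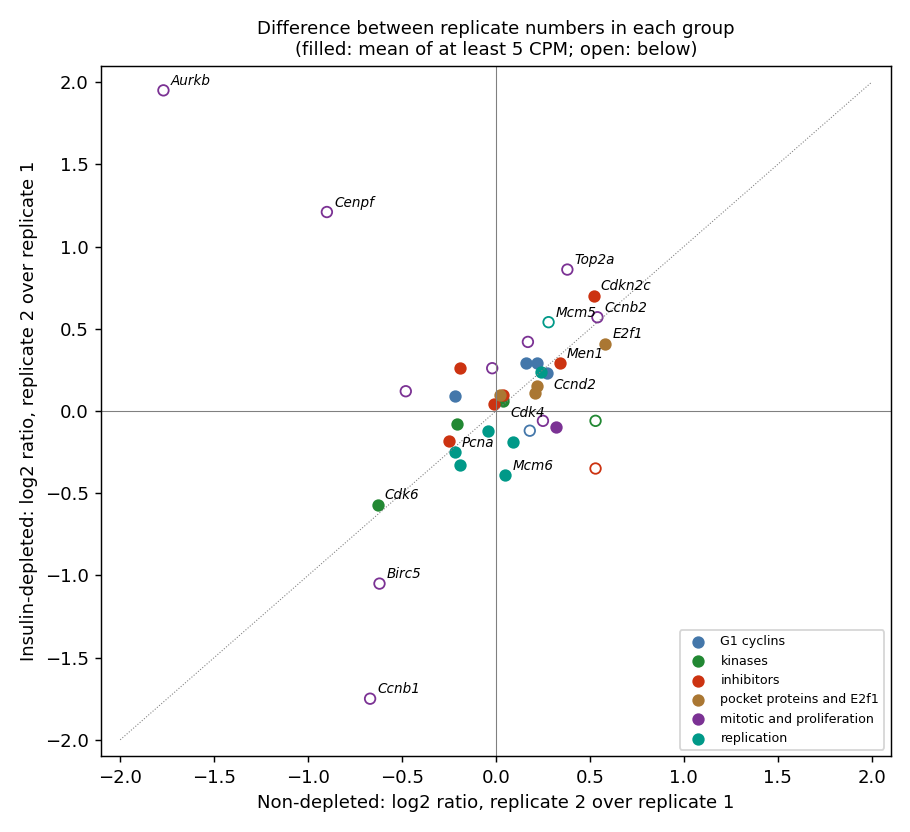
Log2 ratio of replicate 2 over replicate 1 in non-depleted (x axis) and insulin-depleted libraries (y axis) for the 38 genes, coloured by role, filled where the mean was at least 5 CPM. Cdkn2c and E2f1 lie at the upper right and Cdk6 at the lower left, while the scattered points are open circles of genes with few counts, such as Aurkb, Cenpf and Ccnb1.

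The groups with and without insulin depletion were then compared. No member passed the test in the edgeR quasi-likelihood fit on group alone, where 0 of 37 were called at an adjusted p under 0.05. The background is 0.0101% of the 19723 genes tested, that is Ins1 and Ins2. No member reached an unadjusted p under 0.05 either (0 of 37), against 82 of all tested genes (0.416%), and DESeq2 and limma-voom also called 0 members. Same-numbered libraries deviated together (r = 0.845), which a fit on group alone does not model. That fit counts the shared difference between replicate numbers as error, so its intervals can be too wide and its p-values too large. With the replicate number as a block, 3 of 37 members and 4.32% of tested genes had an unadjusted edgeR p under 0.05. In the fit on group alone, log2 fold changes of insulin-depleted over non-depleted libraries lay within -0.20 to 0.46. There were 19 members above and 18 below 0, and the median was 0.00, the same as over all tested genes. The insulin-depleted pair lay wholly above the non-depleted pair for 2 tested members, Ccne1 and Mki67 (5.41%, background 10.2%). It lay wholly below for 3 tested members, Ccne2, Aurka and Foxm1 (8.11%, background 9.33%), and for Aurkb, which was not tested. The groups overlapped for the other 32.

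Intervals of the fit on group alone, which hold the difference between replicate numbers as error, were narrow for abundant members. Cdk4 had a log2 fold change of -0.03 (95% interval -0.22 to 0.15), Cdkn1b of -0.01 (-0.19 to 0.17), Cdkn1a of -0.06 (-0.25 to 0.13) and Rb1 of 0.01 (-0.19 to 0.21). Ccnd2, whose replicates differed more, had 0.00 (-0.30 to 0.31), with group means of 1203 ± 157 and 1207 ± 136 CPM (SD, n = 2). Mki67 had the smallest unadjusted p of the members above 0. Its group means were 5.49 ± 0.852 and 6.93 ± 0.319 CPM (SD, n = 2), with a log2 fold change of 0.33 (SE 0.19, interval -0.14 to 0.80, edgeR adjusted p = 1.00). Below 0, Cdkn2d had the smallest, with 9.78 ± 0.889 and 8.50 ± 1.09 CPM (SD, n = 2) and a log2 fold change of -0.20 (SE 0.17, interval -0.62 to 0.22, edgeR adjusted p = 1.00). Intervals of the low mitotic genes were wide, from -1.37 to 2.29 for Ccnb1 and from -1.63 to 1.44 for Bub1, so that log2 changes past 1 in either direction lay within them.

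By role, medians lay between -0.04 and 0.07. G1 cyclins had 3 members above and 2 below 0 with a median of 0.00, and kinases 1 above and 3 below with -0.04. Inhibitors had 3 above and 4 below with -0.01, and the pocket proteins and E2f1 2 above and 2 below with 0.00. Mitotic and proliferation genes had 6 above and 4 below with a median of 0.07, and replication genes 4 above and 3 below with 0.02. Without insulin-depleted replicate 2 the mitotic median was -0.25 and the replication median 0.19.

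**Figure D4:**
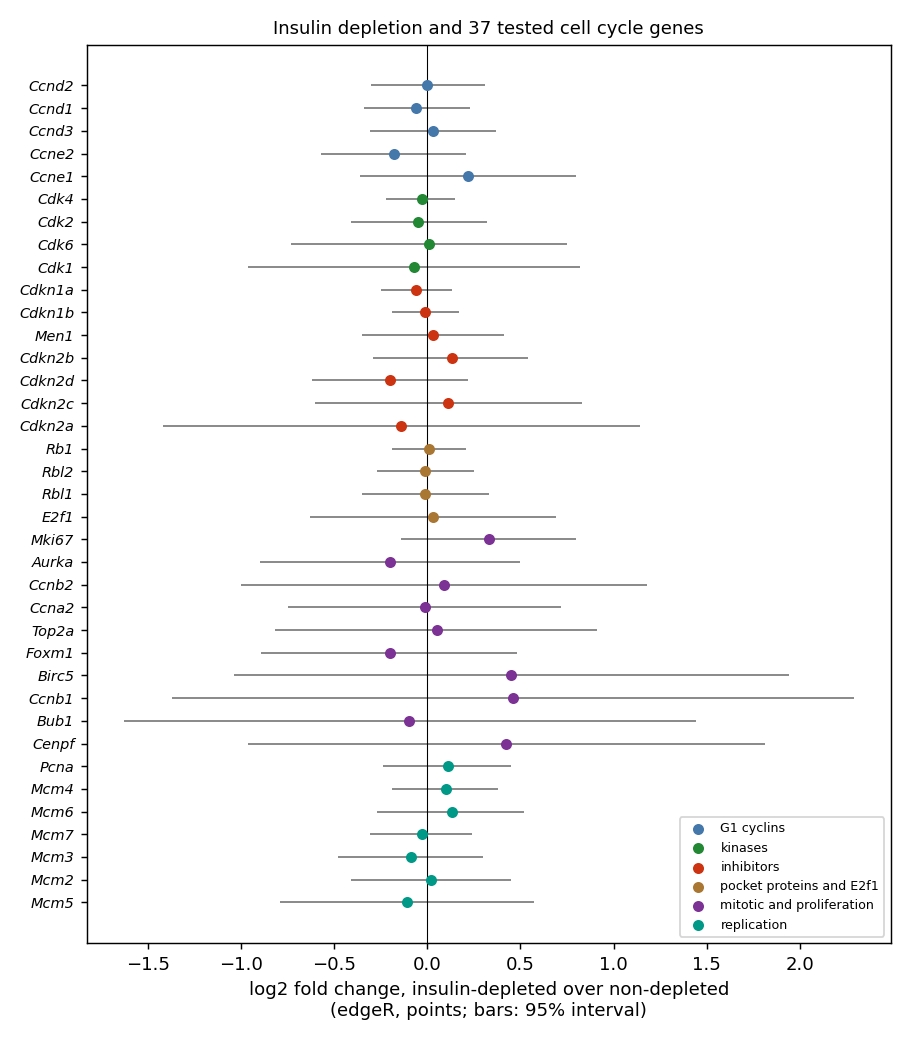
Log2 fold change of insulin-depleted over non-depleted libraries for the 37 tested genes (edgeR), coloured by role, with bars for 95% intervals. Every bar crosses 0, and bars are narrow for abundant genes such as Cdk4 and Cdkn1b and wide for Ccnb1, Bub1 and Birc5.

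Other genes of the pathway, a list of 59 that are not members, also held no called gene. Of the 57 tested, 0 were called higher and 0 lower (edgeR, adjusted p under 0.05), with 28 above and 29 below 0 and a median of 0.00. The highest per kilobase were Ccng1, a p53 target that encodes cyclin G1, with 47.8 CPM, the Polycomb gene Bmi1 with 33.0, and Kmt2a, whose product works with menin, with 20.3. Those with the smallest unadjusted p below 0 were the inhibitor gene Cdkn1c (p57), Cdc45 and E2f8, with log2 fold changes of -0.71, -0.34 and -0.85. E2f8 was barely detected, with 0.289, 0.206, 0.104 and 0.154 CPM (SE 0.69). Its level in insulin-depleted replicate 1 was below the 0.156 CPM of 3 counts. Cdkn1c had 2.84, 2.89, 1.56 and 1.91 CPM, and it was the 1 gene of the list with an unadjusted p under 0.05 (SE 0.25, edgeR adjusted p = 1.00). Above 0, the genes with the smallest unadjusted p were E2f3, Skp2 and Ccnh, with log2 fold changes of 0.18, 0.28 and 0.12. Of the 59 genes, 2 were not tested, Cdc25c and Ccna1, both named after their values were seen.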

How the data were processed

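For 4 libraries of islet RNA, raw counts per gene were deposited by the authors in 1 table, unnormalized. The deposited non-depleted columns are listed under the unit expected counts only because a unit check read the word size in their headers. Their values are whole and were used as counts. Per the submitters' processing notes, cutadapt 4.8, STAR 2.7.11b and the builds GRCm38 and mm10 were used, with no roles given. The counting program, strand use and treatment of reads with several matches have no statement in the labels. The non-depleted columns were matched to libraries by the missing depletion tag and by their final digit, the replicate number.

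All 55536 genes matched GENCODE M21. The test was edgeR 4.0.16, run in R 4.3.3 (filterByExpr, TMM, glmQLFit robust, group alone, Benjamini-Hochberg over 19723 genes, threshold 0.05, biological coefficient of variation 17.1%), and the fit was tested on simulated data. DESeq2 1.42.0, limma-voom (limma 3.58.1), a replicate block, no filter, other scaling, counts divided by 2 and leaving out each library were alternatives. A count of 3 was taken as the limit of detection, and intervals and limits cover counting error only, since the labels name no molecular identifiers and reads may be PCR copies. All members could be named. Full values went to the highest and lowest per role and to those with the largest ratio between replicate numbers or the smallest p. Members and lists were chosen with earlier results of these data known.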

Additional observations from a re-analysis of the deposited data

How the results depend on the processing

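No member was called in any of the 369 combinations of member and alternative (smallest adjusted p 0.999), and the total stayed at 2 genes except with a replicate block, where 9 genes were called (2 higher, 7 lower, 0 members). With the block, 3 of 37 members had an unadjusted p under 0.05 (Mki67 with 0.0366, Cdkn1a with 0.0368 and Pcna with 0.0467, edgeR adjusted p 0.999 each), as did 853 of all tested genes (4.32%), and 0 members did under the other alternatives. Same-numbered libraries deviated together (r = 0.845 across 11554 genes, which are not independent replicates). No label says that they share an animal, so the numbers were not taken as pairs in the main fit. That fit therefore counts their shared difference as error, and its p-values can be too large. Signs of the small fold changes were less stable: 0 to 5 members had another sign under the other tools, filters and scalings, and 11 to 13 when 1 library was left out. Leaving out 1 library in turn, the median over all members ranged from -0.08 to 0.03, over G1 cyclins from -0.11 to 0.13, over the pocket proteins and E2f1 from -0.10 to 0.09, over kinases from -0.09 to 0.02, over inhibitors from -0.10 to 0.00, over mitotic genes from -0.25 to 0.12 and over replication genes from -0.03 to 0.19. With the other length, the other scaling and each left-out library, 8 members were at 10 CPM per kilobase or more. TTTGAA was in 5 mitotic promoters over the whole window and in 2 over the 100 bases before the start, and the E2F letters in 4 and 1 replication promoters. The count of members past a log2 ratio of 0.5 between replicate numbers was 5, and 4 with TMM scaling or with 2 counts added. Leaving out a library gives no such ratio. The low counts of mitotic genes and of Cdkn2a limit what can be seen of them. Leaving out libraries for levels was chosen after seeing the data.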

Other observations

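Bub1b, the gene of a spindle checkpoint protein outside the 38 members, differed more between replicate numbers than the members with a mean of at least 5 CPM. It was singled out after its values were seen. It had 4.31, 9.69, 4.88 and 10.02 CPM (non-depleted first, replicate 1 before 2), with log2 ratios of 1.17 and 1.03. Plk1 (0.66 and 1.20) and Nusap1 (0.71 and 0.58), other mitotic genes, were also higher in both libraries numbered 2, at 0.415 to 1.74 CPM. These 3 were the genes past 0.5 in the same direction in both groups among the 57 tested genes of the list of other cell cycle genes (5.26%, against 10.4% of all tested genes). Of the 57, 14 were higher and 23 lower in replicate 2 of both groups, with median ratios of -0.06 without and -0.02 with depletion.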
